A study of Mus musculus with 37 samples.

Results

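The 31 genes described here mark B lymphocytes (9 genes), T lymphocytes (16 genes) and the homing signals and stroma of lymph nodes (6 genes), and were followed over 37 microarrays of mouse mammary gland. Each gene was read from a probe set annotated to that single symbol. Ccl19 had 4 such probe sets, and its brightest on average was taken. Of the 31 genes 29 were measured, among 19937 measured genes in all, and the levels of Lck and Tcf7 were not analysed here. All 29 passed the filter on dim genes. Cr2, Cxcr5, Cd79a and Fcer2a did so only through the arrays, described below, in which they were high. This left 16865 genes for testing.

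The arrays hold total RNA of mammary glands from FVB females. PTP1B knockout (KO, PTP1B-/-) mice lack the tyrosine phosphatase encoded by Ptpn1 and had been backcrossed to FVB for at least 7 generations. Wild-type (WT) mice carry the phosphatase, and no Cre line or other allele is named in the labels. Glands came from nulliparous females in oestrus (P0) or from females mated at 12 weeks, with glands taken 3, 7, 10 or 15 days into pregnancy (P3, P7, P10, P15). From P0 to P15 there were 4, 3, 5, 3 and 4 KO arrays and 4, 3, 4, 3 and 4 WT arrays. Values are log2 intensities, so a difference of 1 is a doubling of signal. As a check of the labels, Ptpn1 averaged between 5.71 and 6.29 in the KO groups and between 8.49 and 8.78 in the WT groups. The array labelled KO P15 replicate 3 read 8.68 for Ptpn1, inside the WT range, and every KO P15 value below includes it. Skeletal muscle genes were far above the median of their day in WT P0 replicate 4, KO P3 replicate 1 and KO P7 replicate 3, by a mean of up to 5.41 (KO P3 replicate 1).

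In mice the fat pad of the inguinal mammary gland encloses a lymph node, and dissection can leave node tissue in a gland sample or remove it. Within a node, B cells gather in follicles around the chemokine CXCL13 and its receptor CXCR5, and T cells gather in a T zone around CCL19 and its receptor CCR7. Lymphocytes enter through high endothelial venules, whose sulphated sugars are made by the enzyme encoded by Chst4. T cells also live scattered through mammary tissue outside any node. In samples of bulk tissue, fewer cells of a type and less RNA per cell cannot be told apart.

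Promoters of 4 genes that stand for the B cell, T cell, cytokine receptor and venule parts of the group are shown, because these genes rose together in the same arrays. Each window runs from 250 bases before to 50 bases after a RefSeq start site of GRCm38.p6. Cd79a lies on the plus strand at chr7:24897247-24897546, Cd3e on the minus strand at chr9:45009562-45009861, Il7r on the minus strand at chr15:9529827-9530126 and Chst4 on the minus strand at chr8:110039285-110039584. Capitals mark matches, on either strand, to the ETS letters ACTTCCTN (N is any base) in the first 3 and to the RUNX letters ACCACA in Il7r and Chst4. Transcription factors of the ETS and RUNX families act in lymphocytes.
Cd79a: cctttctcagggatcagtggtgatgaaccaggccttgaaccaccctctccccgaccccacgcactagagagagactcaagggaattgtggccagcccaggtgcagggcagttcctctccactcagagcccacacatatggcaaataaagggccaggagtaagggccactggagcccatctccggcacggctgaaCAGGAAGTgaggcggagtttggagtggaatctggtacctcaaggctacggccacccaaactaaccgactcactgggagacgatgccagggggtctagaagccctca
Cd3e: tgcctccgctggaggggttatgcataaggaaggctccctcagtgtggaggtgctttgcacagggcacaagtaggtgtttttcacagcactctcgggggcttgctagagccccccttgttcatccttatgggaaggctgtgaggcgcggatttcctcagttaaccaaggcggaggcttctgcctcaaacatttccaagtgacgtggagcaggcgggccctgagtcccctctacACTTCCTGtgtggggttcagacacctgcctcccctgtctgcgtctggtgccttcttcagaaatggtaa
Il7r: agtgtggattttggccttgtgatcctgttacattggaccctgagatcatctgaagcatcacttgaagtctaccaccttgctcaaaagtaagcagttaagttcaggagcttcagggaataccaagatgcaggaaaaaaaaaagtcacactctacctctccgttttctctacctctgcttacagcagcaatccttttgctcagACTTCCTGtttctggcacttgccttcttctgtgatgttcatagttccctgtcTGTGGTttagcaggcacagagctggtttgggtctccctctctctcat
Chst4: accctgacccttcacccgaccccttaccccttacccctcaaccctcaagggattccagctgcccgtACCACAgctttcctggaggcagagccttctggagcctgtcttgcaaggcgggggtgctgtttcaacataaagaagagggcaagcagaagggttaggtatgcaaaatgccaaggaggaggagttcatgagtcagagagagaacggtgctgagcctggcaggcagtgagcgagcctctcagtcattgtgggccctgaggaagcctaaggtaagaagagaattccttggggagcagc

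The table of promoters held 27 windows of 21 of the 31 genes. The ETS letters were found in 8 windows, or 29.6%, against 9.32% of all 32851 windows. They stood 56 bases before the start site in Cd79a, 18 before it in Cd3e and 49 before it in Il7r, and Cd5, Cd37, Cd3d and Lck also held them. The RUNX letters were found in 22.2% of these windows, against 16.8% of all windows. The octamer ATGCAAAT, read by the OCT factors of B cells, was found in 0 windows, against 1.74% of all. The remaining searches gave CCCNNGGGA (EBF) in 7.41% against 6.56%, CCTTTGAT (TCF/LEF) in 3.70% against 1.08%, CTTTGATC (TCF/LEF) in 0% against 0.938%, and GGANTTTCC (NF-kappa-B) in 3.70% against 1.25%. CCTTTGAT and CTTTGATC share 7 letters and can overlap, and a match is a description of letters, not of binding. Cd3d and Cd3g, which encode 2 chains of the T cell receptor complex, have start sites 1355 bases apart on chromosome 9, and Cd3e starts 27825 bases from Cd3d.

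Most of the signal of these genes lay in a few arrays. To compare arrays across the days, each value was set against the median of that gene over all arrays of the same day, both genotypes, and the difference is called the excess. At P10 that median itself includes 2 high arrays of 6. In KO P10 replicate 2, 28 of the 29 genes had an excess of at least 1, where 3.33% of all tested genes did. In KO P10 replicate 3 it was again 28 of 29, against 3.04% of all genes. WT P7 replicate 1 had 10 of 29, against 0.202% of all genes. WT P0 replicate 3, singled out only after its values were seen, had 11 of 29, against 0.362%. Among the other 33 arrays, 30 had none of the 29 genes at that level, and 3 had Cxcl13 alone, namely KO P3 replicate 3, KO P7 replicate 3 and WT P15 replicate 1.

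**Figure D1:**
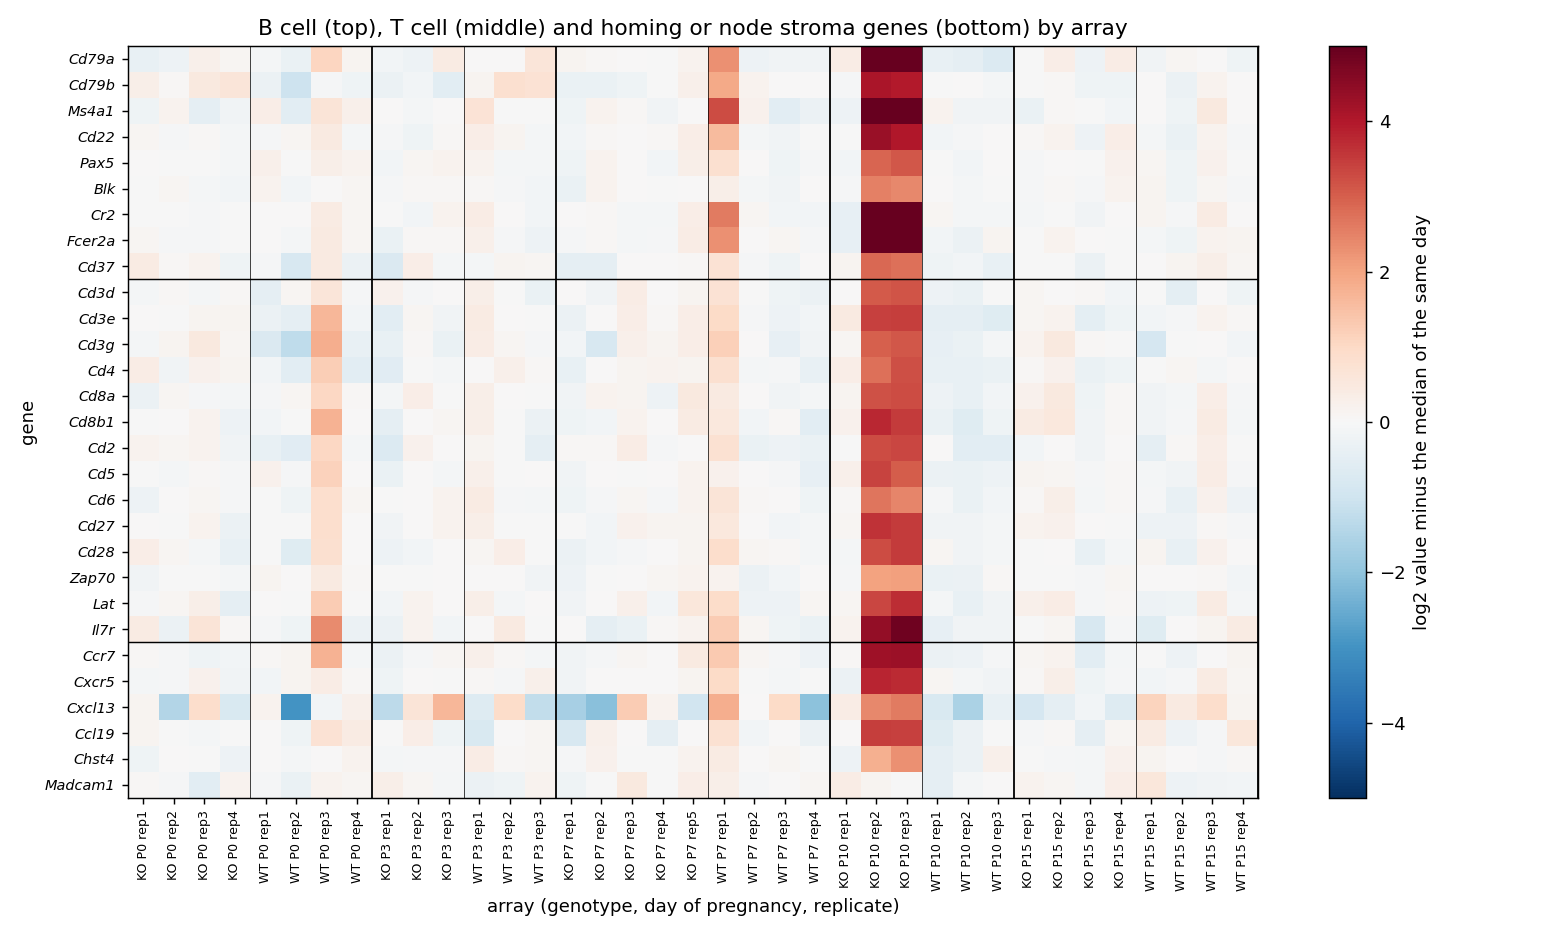
Excess (log2 value minus the median of the same day) of 29 genes in 37 arrays, with days from left to right and KO left of WT within a day; the colour scale ends at 5 in either direction. KO P10 rep2 and rep3 are high for all genes but Madcam1, WT P7 rep1 is raised mainly in B cell genes and WT P0 rep3 mainly in T cell genes.

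Of the 3 groups, B cell genes had the highest mean excess in the KO P10 pair. It was 4.28 in KO P10 replicate 2 and 4.18 in replicate 3, against 3.22 and 3.29 for T cell genes and 2.64 and 2.72 for homing and stroma genes. WT P7 replicate 1 leaned the same way, with a mean excess of 1.75 for B cell genes, 0.72 for T cell genes and 0.92 for homing genes. WT P0 replicate 3 leaned the other way, with 0.41 for B cell genes, 1.20 for T cell genes and 0.49 for homing genes. In the other 33 arrays the mean excess ran between -0.32 and 0.23 for B cell genes, between -0.34 and 0.25 for T cell genes and between -0.55 and 0.35 for homing genes. Every one of the 4 arrays was outside those ranges for all 3 groups.

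Counting genes above the highest of the other 33 arrays gave a second description. KO P10 replicates 2 and 3 passed it for 28 of 29 genes each, against 9.56% and 9.7% of all genes. WT P7 replicate 1 passed it for 22 genes, namely 8 of 9 B cell genes, 9 of 14 T cell genes and 5 of 6 homing genes, against 1.96% of all genes. WT P0 replicate 3 passed it for 19 genes, namely 3 of 9 B cell genes, all 14 T cell genes and 2 of 6 homing genes (Ccr7 and Ccl19), against 4.48% of all genes. Since the 4 arrays were chosen on these genes, these counts describe them and test nothing.

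On a linear scale the increments of the smaller arrays can be read as a share of the one in KO P10 replicate 2, gene by gene. KO P10 replicate 3 had a median of 90.1% for B cell genes, 105% for T cell genes and 104% for the homing genes other than Madcam1. WT P7 replicate 1 had a median of 10.6% over B cell genes (range 4.74% to 17.2%), 6.46% over T cell genes (1.36% to 10.9%) and 7.26% over the homing genes other than Madcam1, where Cxcl13 reached 35.9%. WT P0 replicate 3 had a median of 12.2% over T cell genes (5.98% to 18.2%) but 1.12% over B cell genes (-0.23% to 6.19%). Its homing genes split, with Ccr7, the receptor that T cells follow into nodes, at 12.8% and the follicle receptor gene Cxcr5 at 1.99%. The highest B cell share in WT P0 replicate 3 was that of Cd37, a tetraspanin that T cells also express.

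**Figure D2:**
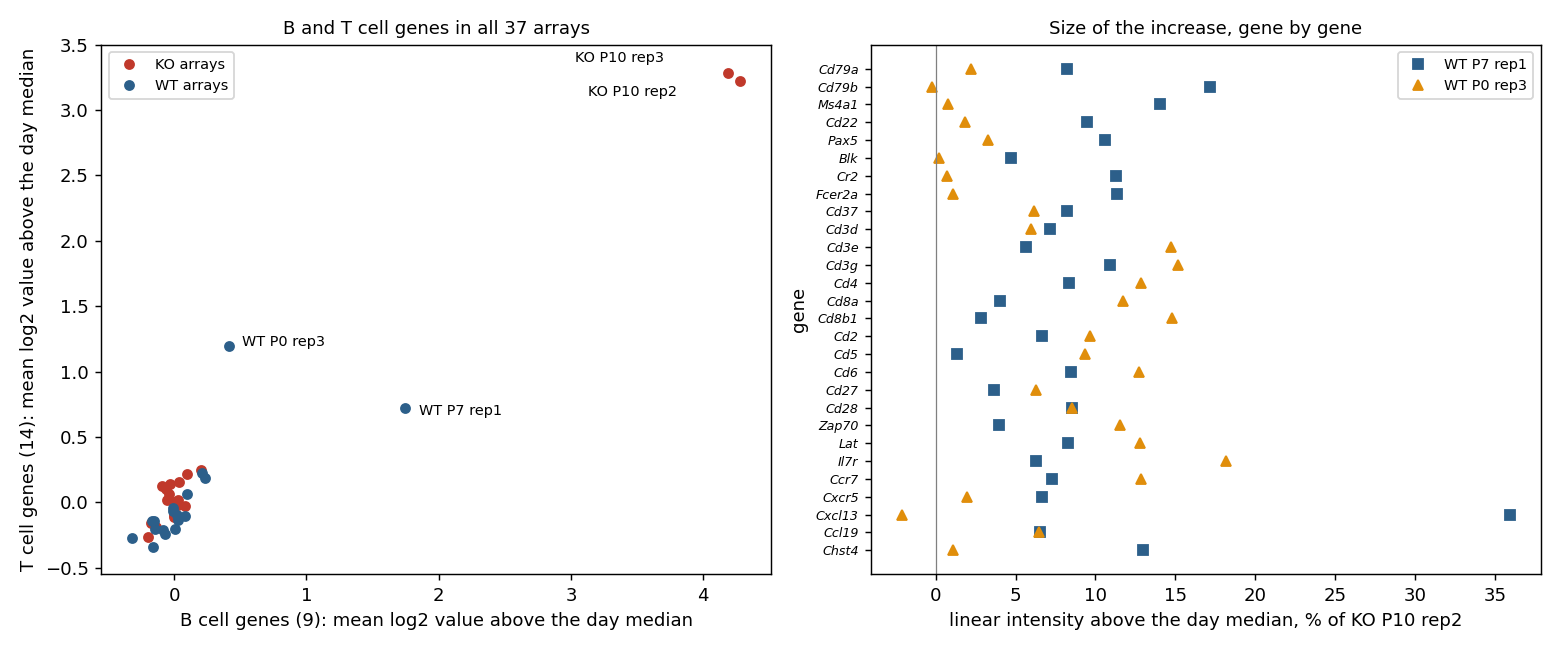
Left, mean excess of 9 B cell genes (x axis, log2) and 14 T cell genes (y axis, log2) in each of 37 arrays; 33 arrays lie near 0 and 4 named arrays lie apart. Right, linear intensity above the day median for each gene as a percent of the same quantity in KO P10 rep2, in WT P7 rep1 (squares, median 10.6% for B cell genes) and WT P0 rep3 (triangles, median 12.2% for T cell genes).

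The question of the series is how loss of PTP1B alters the gland, and at P10 the values of these genes rest on the 2 arrays above. Fitted over all 37 arrays with limma, 28 of the 29 genes were higher in KO than in WT glands at P10 (adjusted p below 0.05, termed called), against 17.2% of all tested genes called and 8.1% called higher. The median difference of the 29 genes was 2.54, against -0.03 over all genes. The 28 differences ran between 1.42 (Chst4) and 4.08 (Cd79a), with adjusted p between 0.000419 and 0.0408. All 3 KO arrays were above all 3 WT arrays for 16 of the 29 genes, against 11% of all genes.

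Among B cell genes, Cd79a encodes a signalling chain of the B cell antigen receptor. It read 5.01, 9.88 and 9.73 in KO P10 glands, against 4.25, 4.18 and 3.94 in WT P10 glands. All 3 KO arrays were above all WT arrays, replicate 1 by far the least. The fitted difference was 4.08 ± 0.70 (SE, n = 3 each, limma adjusted p = 0.000491), with 1 spread pooled over all 37 arrays. Within groups the SD of Cd79a was 2.77 in KO P10 and 0.16 in WT P10. At P10 the pooled SE and p value are therefore too small for Cd79a and for most genes that rose. Cd79a also passed the filter only through the arrays in which it was high, so its test adds no support. Ms4a1, which encodes the B cell surface protein CD20, read 4.66, 10.88 and 10.61 in KO P10 glands, against 5.09, 4.74 and 4.72 in WT P10 glands. Here KO replicate 1 lay below all 3 WT arrays, so the groups overlapped, and the difference was 3.87 ± 0.89 (limma adjusted p = 0.00319). Cr2, the complement receptor of B cells and follicular dendritic cells, read 4.02, 9.91 and 9.92 in KO P10 glands, against 4.51, 4.34 and 4.33 in WT P10 glands. Its KO replicate 1 was the lowest of all 37 arrays, and the difference was 3.55 ± 0.80 (limma adjusted p = 0.00271). Fcer2a, the low-affinity IgE receptor of follicular B cells, also overlapped between the groups, with a difference of 3.39 ± 0.75 (limma adjusted p = 0.00233). Without the arrays set apart above Fcer2a would not have passed the filter either. The other 5 B cell genes were Cd79b, the second signalling chain of the receptor, the inhibitory receptor gene Cd22, the transcription factor gene Pax5, the kinase gene Blk and the tetraspanin gene Cd37. They differed by 1.65 (Blk) to 2.82 (Cd22), all called.

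All 14 T cell genes rose, with a median difference of 2.48, against 2.82 for the 9 B cell genes, and whether these medians differ was not tested. Cd3e encodes a chain of the T cell receptor complex and read 8.99, 11.95 and 11.96 in KO P10 glands, against 8.06, 8.06 and 7.93 in WT P10 glands. All KO arrays were above all WT arrays, and the difference was 2.95 ± 0.49 (limma adjusted p = 0.000419). Cd8b1, which marks CD8 T cells, read 6.46, 10.01 and 9.73 in KO P10 glands, against 5.92, 5.65 and 6.01 in WT P10 glands. Its difference was 2.87 ± 0.52 (limma adjusted p = 0.000571), beside 2.46 ± 0.43 for Cd4, which marks helper T cells (limma adjusted p = 0.000540). Il7r, the interleukin 7 receptor on which resting T cells depend, read 7.09, 11.31 and 11.77 in KO P10 glands, against 6.52, 6.73 and 6.73 in WT P10 glands. Its difference of 3.40 ± 0.70 (limma adjusted p = 0.00131) was the largest of the 14 T cell genes. The smallest was 1.53 ± 0.27 for Zap70, the kinase that binds the activated receptor (limma adjusted p = 0.000571). The remaining 10, namely the receptor chains Cd3d and Cd3g, the coreceptor Cd8a, the adhesion molecule Cd2, the scavenger-type receptors Cd5 and Cd6, the costimulators Cd27 and Cd28, the adaptor Lat and Cd4 above, differed by 1.92 (Cd6) to 2.58 (Lat).

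Homing genes covered the B follicle, the T zone and the venules. Ccr7 read 6.88, 11.08 and 11.12 in KO P10 glands, against 6.52, 6.58 and 6.79 in WT P10 glands, a difference of 3.06 ± 0.60 (limma adjusted p = 0.000951). Its ligand gene Ccl19 read 8.77, 12.23 and 12.18 in KO P10 glands, against 8.17, 8.46 and 8.76 in WT P10 glands, a difference of 2.60 ± 0.50 (limma adjusted p = 0.000813). Receptor and ligand of the T zone were thus high in the same 2 KO arrays, with replicate 1 just above the highest WT array for both. Cxcr5 differed by 2.48 ± 0.53 (limma adjusted p = 0.00168), with KO replicate 1 below all 3 WT arrays. Like Cr2, it passed the filter only through KO P10 replicates 2 and 3 and WT P7 replicate 1. It read at most 4.63 elsewhere, so its test adds no support. Cxcl13 read 10.05, 12.06 and 12.25 in KO P10 glands, against 8.93, 8.09 and 9.30 in WT P10 glands, a difference of 2.68 ± 0.92 (limma adjusted p = 0.0408). This call was the least firm of the 28 and was lost without any 1 of 5 arrays, the 3 WT P10 arrays and KO P10 replicates 2 and 3 (adjusted p between 0.0582 and 0.19). Chst4 read 4.83, 6.86 and 7.38 in KO P10 glands, against 4.65, 4.81 and 5.34 in WT P10 glands, a difference of 1.42 ± 0.31 (limma adjusted p = 0.00211).

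Madcam1 stood apart. It encodes an adhesion molecule best known from the venules of gut-associated lymphoid tissue. It read 7.46, 7.23 and 7.07 in KO P10 glands, against 6.66, 7.00 and 7.14 in WT P10 glands, so that the 2 arrays rich in the other 28 genes were the lower of the KO arrays. The difference was 0.32 ± 0.20 (limma adjusted p = 0.294).

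**Figure D3:**
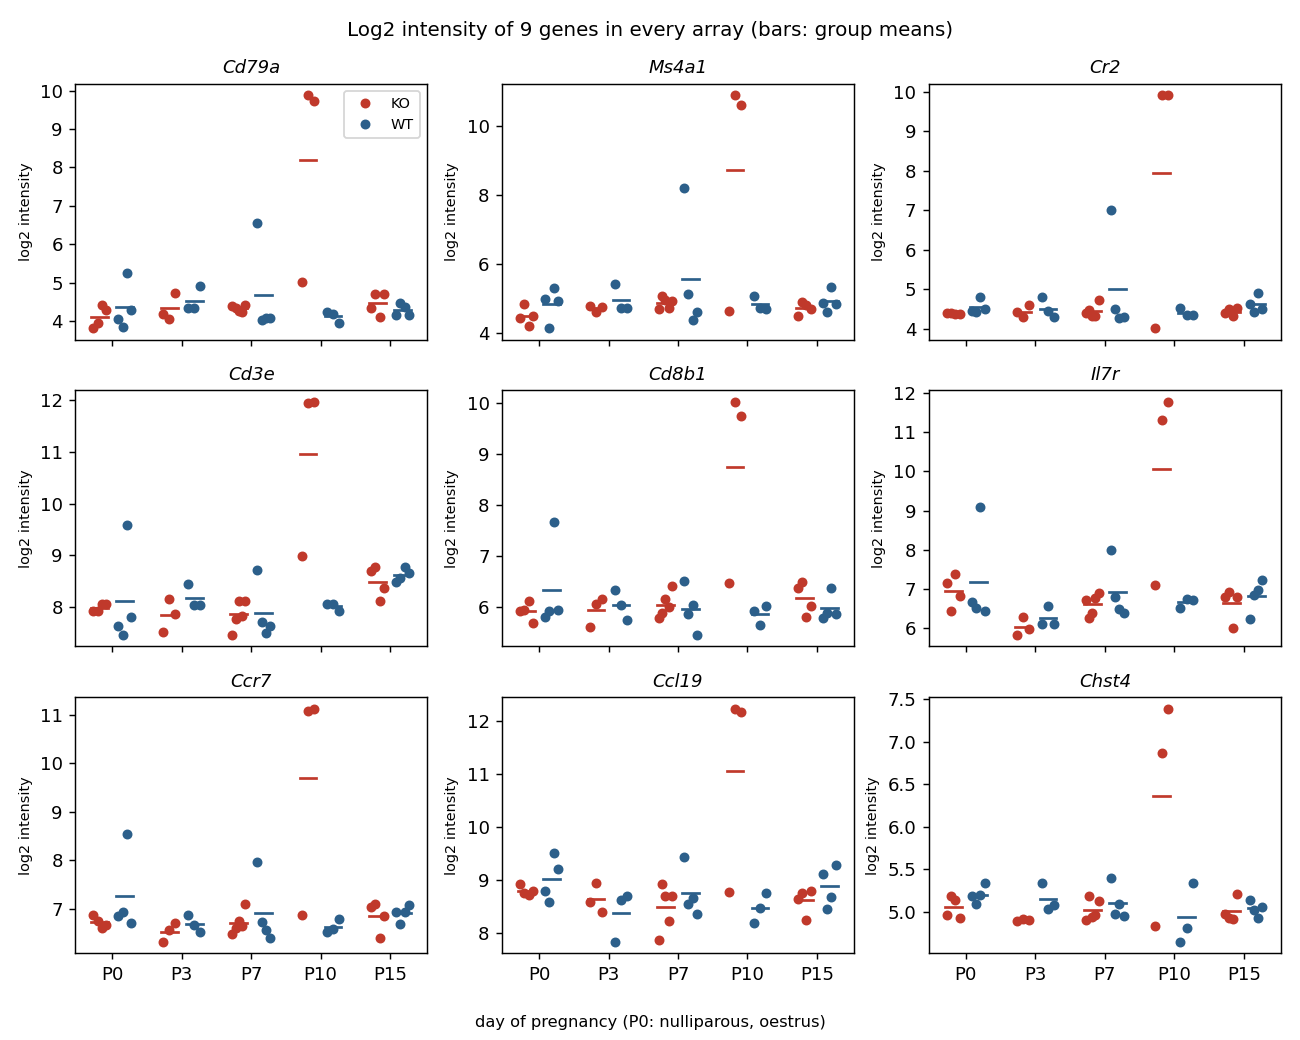
Log2 intensity of 9 genes in every array by day of pregnancy, KO (left of each day) and WT (right of each day); points are arrays and bars are group means. At P10 the KO mean lies between 1 low array and 2 high arrays, with Cd79a at 5.01, 9.88 and 9.73, and the single high WT points are WT P7 rep1 and WT P0 rep3.

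KO P10 replicate 1 was unlike the other 2. It lay above all 3 WT P10 arrays for 17 of the 29 genes, against 23.9% of all genes, and below all 3 for 4 genes, against 26.6% of all genes. The 17 held all T cell genes but Cd2, Cd28 and Zap70, and the 4 were Ms4a1, Cr2, Fcer2a and Cxcr5. Among the 33 arrays other than the 4 set apart above, it was the highest for Cd79a, Cd3e, Cd4 and Cd5. No gene of the group reached an excess of 1 in KO P10 replicate 1, against 0.0593% of all genes. Where this array lay between the WT arrays and the 2 high arrays, its own value entered the day median, which lowers its excess. Cd3e had an excess of 0.46 in it, with a reading of 8.99 against at most 8.06 in WT P10 glands. Leaving out KO P10 replicates 2 and 3 and WT P7 replicate 1 left this array as the only KO P10 sample, and its spread was then assumed to equal that of the other groups. In that fit 0 of the 29 genes and 0 of all genes were called by limma at P10, while 3 of the 29 and 737 of all genes had an unadjusted p below 0.05. Cd79a differed by 0.88 ± 0.34, Cd3e by 0.97 ± 0.44, Cd4 by 0.69 ± 0.38 and Cxcl13 by 1.28 ± 1.24. Ms4a1 turned to -0.19 ± 0.33, Cr2 to -0.38 ± 0.18 and Chst4 to -0.10 ± 0.17. The median of the 29 genes was 0.25, against -0.01 over all genes. With the 6 P10 arrays fitted alone the fold changes stayed as they were, with a median of 2.54 over the 29 genes, Cd79a at 4.08 and Chst4 at 1.42. The spread was then estimated from fewer arrays and without the groups of other days, most of them tighter than KO P10. In this fit 0 of the 29 were called by limma, with 26 at an unadjusted p below 0.05. The shares of all genes in this fit are not given here, so neither count is a result about these genes alone.

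**Figure D4:**
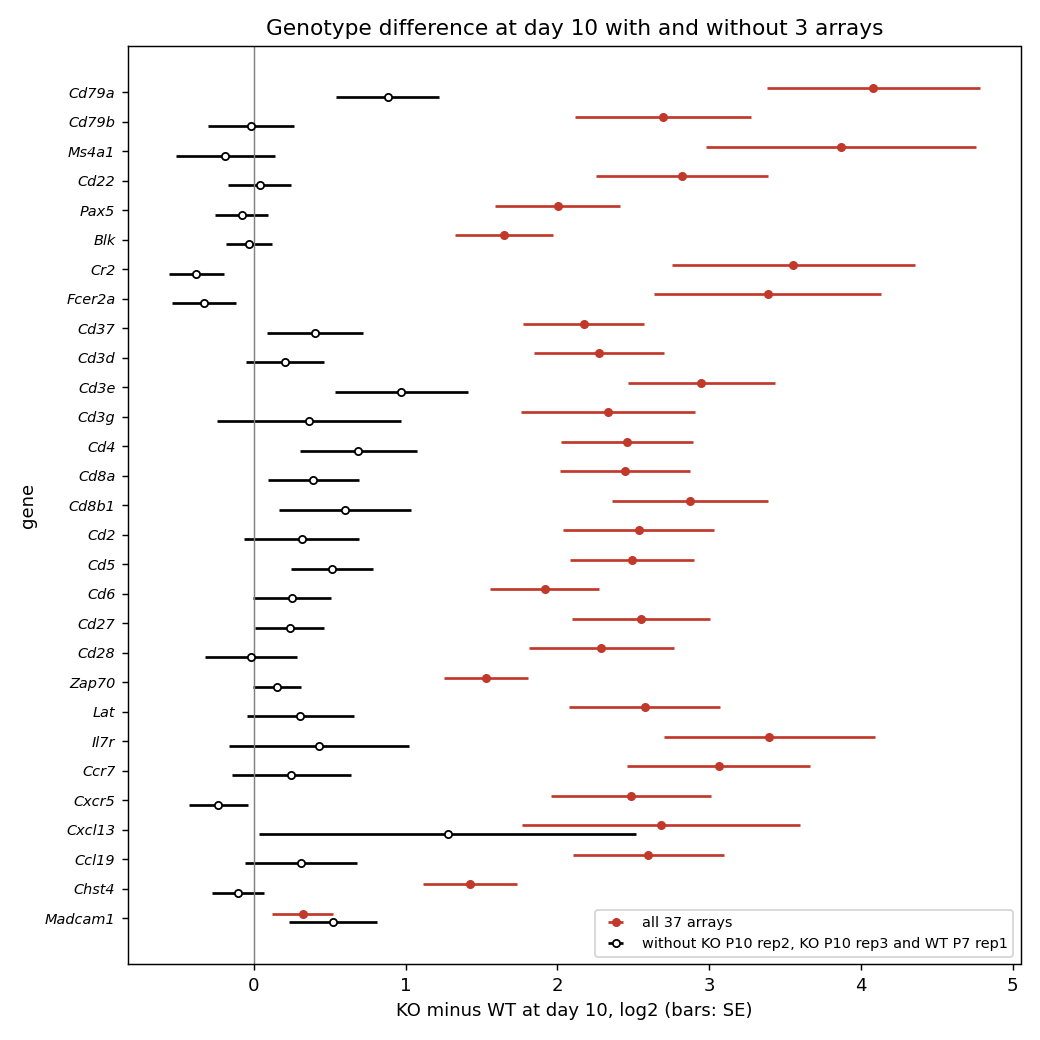
KO minus WT difference at P10 (log2, x axis, bars are SE) for 29 genes, fitted on all 37 arrays (filled) and without KO P10 rep2, KO P10 rep3 and WT P7 rep1 (open). Filled points lie between 0.32 (Madcam1) and 4.08 (Cd79a), and open points between -0.38 (Cr2) and 1.28 (Cxcl13).

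At the other days no gene of the group was called between genotypes. The counts were 0 of 29 at P0, against 1.7% of all genes, 0 at P3, against 0.119%, 0 at P7, against 0.00593%, and 0 at P15, against 11.1%. At each of these 4 days 0 of the 29 also had an unadjusted p below 0.05 in limma. Differences ran between -0.54 (Ccr7) and 0.75 (Cd79b) at P0, between -0.88 (Cd79b) and 0.63 (Cxcl13) at P3, between -0.83 (Cxcl13) and 0.12 (Cd2) at P7, and between -1.16 (Cxcl13) and 0.42 (Cd3g) at P15. All days share 1 estimate of the spread per gene, to which the arrays rich in lymphocyte genes contribute. In the mean over the 5 days all 29 differences were positive with a median of 0.42, and 0 were called, against 2.43% of all genes and 1.3% called higher, with 18 at an unadjusted p below 0.05 in limma. That count of 0 became 27 without KO P10 replicate 1, against 6.32% of all genes called higher, and 27 with array weights, against 9.77%. Without the 3 arrays named above the median was 0.03, with 19 of 29 positive, 0 called, against 0.302% of all genes, and 1 at an unadjusted p below 0.05. A limma F test for variation of the KO minus WT difference over the days called 26 of 29 genes, against 18% of all genes, and 1 without the 3 arrays, against 4.92%.

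The 1 gene called in both fits of this F test was Cd79b (adjusted p = 0.0104 over all arrays and 0.00731 without the 3), and it had opposite genotype differences at P0 and P3. Its level lay between 7.47 and 8.03 in KO P0 glands, against 6.37 to 7.37 in WT P0 glands. At P3 it lay between 7.13 and 7.52 in KO glands, against 7.80 to 8.46 in WT glands. The groups did not overlap on either day. Over all arrays the difference was 0.75 ± 0.50 at P0 and -0.88 ± 0.58 at P3, and neither was called. Without the 3 arrays the P0 difference was called (0.75 ± 0.17, limma adjusted p = 0.0250, against 1.99% of all genes called) and the P3 difference was not (-0.88 ± 0.20, limma adjusted p = 0.0982). Its partner chain gene Cd79a differed by -0.24 ± 0.61 at P0 and -0.20 ± 0.70 at P3 over all arrays. Leaving out arrays picked for high values of these genes narrows their spread, so p values of such fits can be too small for genes of the group. None of the 3 arrays is from P0 or P3, and which spread applies on those days was not tested.

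WT P7 replicate 1 held the high values among the WT arrays of that day. Ms4a1 read 8.19 there and 4.38 to 5.15 in the other 3 WT P7 arrays, Cr2 read 7.00 beside 4.26 to 4.49, and Cd79a 6.56 beside 4.02 to 4.09. The KO P7 arrays lay between 4.69 and 5.08 for Ms4a1, between 4.31 and 4.74 for Cr2 and between 4.24 and 4.43 for Cd79a. T cell genes were raised there by less, with Cd3e at 8.71 beside 7.50 to 7.72 and Cd8b1 at 6.50 beside 5.45 to 6.03. Cxcl13 read 10.76, its highest value outside the KO P10 pair, although WT P7 replicate 3 and KO P7 replicate 3 were also high at 9.92 and 10.24.

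WT P0 replicate 3 showed the reverse balance. Il7r read 9.09 beside 6.44 to 6.67 in the other 3 WT P0 arrays, Cd8b1 7.66 beside 5.79 to 5.93, Cd3e 9.59 beside 7.47 to 7.80, and Ccr7 8.55 beside 6.72 to 6.95. Among B cell genes Ms4a1 had an excess of 0.64, Cr2 of 0.39 and Cd79b of -0.05 in this array. Of 17 other T cell genes Themis, an adaptor of T cell development, had the highest excess at 1.79. The transcription factor gene Lef1 followed at 1.61, and the others ran between -0.50 (Gata3) and 0.94. Pan-epithelial genes had a mean excess of -0.47 and skeletal muscle genes one of 0.55 in this array, and their part in the result was not tested.

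Outside KO P10, few of these genes were called between days of pregnancy. Against P0 of the same genotype, 0 of 29 genes were called in KO at P3 (18.8% of all genes) and at P7 (16.2%), with 1 unadjusted p below 0.05 in limma on each day. On day 10 in KO 28 were called, all but Cxcl13 (30.7% of all genes), and on day 15 in KO 3 were called (41.3%). In WT 0 were called at P3 (18.1%, 2 unadjusted) and P7 (29.3%, 0 unadjusted), 1 at P10 (21.4%) and 2 at P15 (48.8%). All comparisons of a genotype share its P0 arrays. Outside KO P10 the shares of these genes were below those of all genes on every day. For most genes of the group the arrays rich in lymphocyte genes widen the shared spread, so changes can be missed that would be called in other genes. In WT at P10, Cd3g differed by 1.14 and was not called, while Madcam1 differed by 0.55 and was.

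Cxcl13 was lower at P15 than at P0 in both genotypes. In KO it read 5.55, 5.92, 6.24 and 5.73 at P15, against 9.75, 8.14, 10.49 and 8.84 at P0. The groups did not overlap, and the difference was -3.45 ± 0.79 (limma adjusted p = 0.000704), kept with each array left out in turn. In WT it read 7.50, 6.82, 7.26 and 6.51 at P15, against 9.79, 6.61, 9.46 and 9.86 at P0. Replicate 2 of WT P0 lay inside the P15 range, and the difference was -1.91 ± 0.79 (limma adjusted p = 0.0464), a call lost in 15 of 37 fits with 1 array left out. The KO and WT arrays at P15 did not overlap for Cxcl13 either, with a difference of -1.16 ± 0.79 that was not called (limma adjusted p = 0.414). Its SD within a group of arrays ran between 0.29 and 1.66. It was low at P3 too, between 5.65 and 8.65 in KO glands and between 5.77 and 7.90 in WT glands. Its difference from P0 there was -2.002 ± 0.86 in KO and -2.26 ± 0.86 in WT, neither called (limma adjusted p = 0.101 and 0.0642). At P7 the difference from P0 was -0.999 ± 0.75 in KO and 0.20 ± 0.79 in WT, so the group means did not run one way over the days.

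Madcam1 took the other direction. Against P0 it was higher by 0.94 ± 0.19 at P10 and by 0.77 ± 0.18 at P15 in KO (limma adjusted p = 0.000385 and 0.000623), and by 0.55 ± 0.19 and 0.59 ± 0.18 in WT (limma adjusted p = 0.0369 and 0.00618). Levels lay between 6.86 and 7.28 in KO P15 glands, against 5.86 to 6.59 in KO P0 glands, and between 6.73 and 7.54 in WT P15 glands, against 6.07 to 6.60 in WT P0 glands. Neither genotype overlapped between these days. The WT P10 call was lost without WT P0 replicate 1 or 2 or WT P10 replicate 2 or 3 (adjusted p between 0.0691 and 0.149), and the WT P15 call without WT P15 replicate 1 (0.40, adjusted p = 0.0522). In the lymphocyte-rich arrays the excess of Madcam1 was 0.13 and -0.03 in KO P10 replicates 2 and 3, 0.28 in WT P7 replicate 1 and 0.19 in WT P0 replicate 3.

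Cd37 fell in KO at P15, to between 7.31 and 7.62, against 8.27 to 8.89 in KO P0 glands, a difference of -1.06 ± 0.35 (limma adjusted p = 0.0142). In WT the same comparison gave -0.56 ± 0.35 (limma adjusted p = 0.183), and whether these 2 differences differ was not tested on its own. Fitted without the 3 arrays, Cd37 fell in WT too (-0.56 ± 0.19, limma adjusted p = 0.0178), and 5 of 29 genes were called in KO, against 42.5% of all genes. In that fit Cd79b also fell at P15 in KO (-1.17 ± 0.17, limma adjusted p = 3.46e-06), and Cd3g rose (0.99 ± 0.37, limma adjusted p = 0.0325). Over all arrays neither was called (limma adjusted p = 0.0617 for Cd79b and 0.112 for Cd3g). Cd3g lay between 7.95 and 8.46 in KO P15 glands, against 6.92 to 7.48 in KO P0 glands, and between 7.13 and 7.99 in WT P15 glands, against 5.73 to 8.83 in WT P0 glands. Over all arrays the WT differences of Cd3g from P0 were 0.46 on day 3, 0.80 on day 7, 1.14 on day 10 and 0.86 on day 15, none called (limma adjusted p between 0.121 and 0.577).

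**Figure D5:**
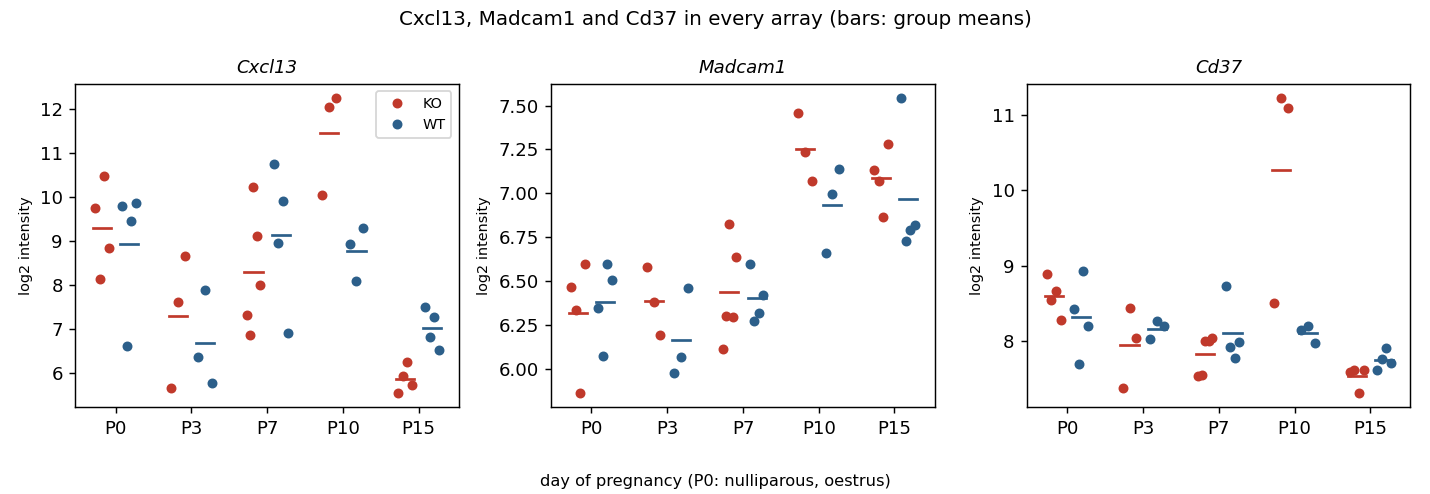
Log2 intensity of Cxcl13, Madcam1 and Cd37 in every array by day of pregnancy, KO (left of each day) and WT (right of each day); points are arrays and bars are group means. Cxcl13 is low at P15 (5.55 to 6.24 in KO, 6.51 to 7.50 in WT), Madcam1 is higher at P10 and P15 than at P0, and Cd37 in KO lies between 8.27 and 8.89 at P0 and between 7.31 and 7.62 at P15.

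Other genes of the same cells were counted from lists of further markers. At P10, 14 of 15 other B cell genes and 13 of 15 other T cell genes were called higher in KO glands, against 8.1% of all genes, and none lower. Fcmr, the Fc receptor for IgM, differed by 3.10 ± 0.66 and the transcription factor gene Spib by 2.92 ± 0.55, while Themis differed by 2.85 ± 0.60 and Icos, a costimulator of helper T cells, by 2.50 ± 0.44. Ebf1, a B cell factor that fat cells also express, had an excess of -0.20 and -0.04 in KO P10 replicates 2 and 3. Gata3, a T cell factor that luminal epithelium also expresses, had one of -0.08 and -0.10. Genes of naive lymphocyte traffic were higher in 9 of 11 cases.

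Of 13 further node stroma and venule genes 4 were called higher, against 8.1% of all genes, led by Bst1, which stromal cells express (2.01 ± 0.40, limma adjusted p = 0.000991), with Il7, the ligand of the interleukin 7 receptor, at 0.65 ± 0.21. The venule enzyme gene Fut7 had an excess of 0.39 and 0.73 in KO P10 replicates 2 and 3, and Nkx2-3 one of -0.04 and 0.07. Germinal centre genes were higher in 2 of 7 cases, against the same 8.1% (Rgs13 at 1.86 ± 0.45 and Gcsam at 1.10 ± 0.29). Lymphatic endothelial genes were called higher in 2 of 8 cases (Mmrn1 and Stab2), against 8.1% of all genes, and lower in 1 (Reln), against 9.13%. The B cell, T cell, follicle and T zone genes and Chst4 were raised together in KO P10 replicates 2 and 3. These arrays were named on the same genes, so this is no check of the label lymph node. Madcam1 and, among genes not used for that choice, 9 of these 13 stroma and venule genes were not called.

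Genes of other kinds of cells also differed between genotypes at P10. Cytotoxic lymphocyte genes were higher in 10 of 11 cases at P10, with the chemokine gene Ccl5 at 2.08 ± 0.40, and dendritic cell genes in 7 of 10, with Ccl22 at 1.79 ± 0.42. Macrophage genes were higher in 2 of 12 cases, and plasma cell genes were higher in 1 (Mzb1) and lower in 1 (Sdc1) of 10. Blood endothelial genes were lower in 6 of 10 cases (Kdr at -0.86 ± 0.20), white adipocyte genes in 3 of 11 (Plin1 at -0.56 ± 0.18) and pan-epithelial genes in 2 of 12 (Krt18 at -0.72 ± 0.20), against 9.13% of all genes called lower. Of 12 skeletal muscle genes 0 were called. The mean excess was -0.76 and -0.44 for adipocyte genes, -0.74 and -0.34 for blood endothelial genes and -0.23 and -0.30 for pan-epithelial genes in KO P10 replicates 2 and 3. Without the 3 arrays, which left 1 KO P10 array, the median difference was 0.55 for cytotoxic and 0.21 for dendritic cell genes. It was 0.20 for macrophage, 0.31 for plasma cell, -0.26 for blood endothelial, -0.03 for adipocyte and -0.07 for pan-epithelial genes. The part of tissue content in the P10 differences was not tested.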

How the data were processed

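The authors deposited log2 values for 34760 probe sets. Per the labels' protocols, sense-strand cDNA amplified from total RNA was labelled with an Affymetrix kit, and affy is the tool that the submitters' processing notes name. How background was corrected, and how probes were summarised and normalised, is not given in the sources used here. Array medians lay between 6.52 and 6.79.

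Genes were probe sets with 1 symbol in GEO's platform annotation, which can be old (21640 of 34760, with 1321 carrying several symbols and 11799 none named here), taking the highest mean where a gene had several. Genes above 4.96, the 25th percentile, in at least 3 arrays were tested. The main model (limma 3.58.1, R 4.3.3) took every array and 10 group means, two-sided, with Benjamini-Hochberg adjustment over all tested genes and a threshold of 0.05, a script tested on simulated data. Nothing says that replicates came from separate animals, so p values measure the spread between these samples, which may be technical. The number of arrays, 3 to 5 per group, limits the precision, and no batch or date is given. The genes, lists and tests were chosen with earlier results of these data known. The text describes all 29 measured genes, gives values per array for those picked by role, and names from each further list up to 3 called genes with the largest change. Genes outside these rules (Fcer2a, Cd79b, Zap70, Cd3g, Ebf1, Gata3, Fut7, Nkx2-3, Prf1, Cst7 and Glycam1) were picked after their values were seen. Alternatives were no filter, all probe sets, quantile normalisation, centring on the median, a trended prior, array weights, a replicate block, fits of the compared groups alone and left-out arrays. Promoters are RefSeq windows of GRCm38.p6, for which all 31 symbols matched a RefSeq gene. A planned motif search in proteins was not run.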

Additional observations from a re-analysis of the deposited data

Results flagged for a closer look

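In groups of 4 or 5 arrays, a gap to the next array that passes Dixon's 95% limit was found in 21 of 174 tests. These tests take genes that rise together in the same arrays, so they are not independent. The share of all genes that pass this limit was not computed, so the count is a description only. WT P7 replicate 1 was the high array of its group for 7 genes, with Cd79a at 6.56, Cd79b at 9.19, Cd22 at 7.31, Cr2 at 7.00, Fcer2a at 6.90, Cd2 at 7.06 and Cxcr5 at 5.17. WT P0 replicate 3 was the high array of its group for 8 genes, with Cr2 at 4.80, Cd3e at 9.59, Cd8a at 7.22, Cd8b1 at 7.66, Cd27 at 6.42, Lat at 7.35, Il7r at 9.09 and Ccr7 at 8.55. The array labelled KO P15 replicate 3 was the low one of its group for Cd37 at 7.31 and Il7r at 6.01. Single high arrays were WT P15 replicate 3 for Cd8b1 at 6.36, KO P7 replicate 3 for Cd2 at 6.65 and WT P15 replicate 1 for Madcam1 at 7.54, and WT P0 replicate 2 was a low one for Cxcl13 at 6.61. Groups of 3 arrays, KO P10 among them, were not examined in this way.

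The genotype difference varied between days for 9 of the genes picked by role (limma F test, adjusted over all genes). The adjusted p was 0.00422 for Cd3e, 0.00611 for Cd79a, 0.00864 for Cd8b1, 0.0106 for Ccl19, 0.0117 for Ccr7, 0.0176 for Il7r, 0.0235 for Chst4, 0.0297 for Ms4a1 and 0.0301 for Cr2. Without KO P10 replicates 2 and 3 and WT P7 replicate 1 none of these 9 was called. The part of tissue content in these results was not tested.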

How the results depend on the processing

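The 28 calls at P10 became 0 without the 3 arrays rich in lymphocyte genes (KO P10 replicates 2 and 3, WT P7 replicate 1), without these and WT P0 replicate 3 (an alternative chosen after seeing the data), without 7 arrays in doubt (the 3, the array labelled KO P15 replicate 3 and 3 muscle-rich arrays). They also became 0 with the compared groups alone, where the fold changes were those of the full fit (Cd79a 4.08, Il7r 3.40 and Chst4 1.42) and adjusted p of the genes picked by role was 0.184 to 0.237. In the 3 left-out fits the fold changes shrank (Cd79a 0.88, Il7r 0.43), and Ms4a1 turned to -0.19, Cr2 to -0.38 and Chst4 to -0.10. Without the 3 arrays the counts called became 1 at P0 between genotypes (1.99% of all genes) and 1 for the test between days (4.92%). In KO they became 1, 2 and 5 at P3, P7 and P15 against P0, with 42.5% of all genes called at P15. In WT they became 1 and 3 at P3 and P10. With WT P0 replicate 3 left out too they became 2 at P0 between genotypes and 3 for the test between days. They became 3, 2 and 8 in KO at P3, P7 and P15. In WT they became 3, 1, 3 and 4 at P3, P7, P10 and P15. WT P0 replicate 3 was picked for high T cell genes, so leaving it out lowers the WT P0 mean of those genes by construction. Without the 7 arrays the counts became 2 and 6 in KO at P7 and P15. They became 3, 1 and 3 in WT at P3, P7 and P10, and 1 for the test between days. The compared groups alone gave 1 at P15 between genotypes, 2, 5 and 8 in KO at P7, P10 and P15, and 0 in WT at P10. Array weights gave 27 in the mean over days, 1 and 5 in KO at P7 and P15, and 1 and 5 in WT at P3 and P10. WT P10 gave 0 with all probe sets or quantile normalisation, and WT P15 gave 1 without the filter or with all probe sets, where single genes had adjusted p of 0.0511 to 0.0538 (Madcam1 and Cxcl13). With all probe sets Cxcl13 also lost its P10 call between genotypes (adjusted p = 0.0522). Without KO P15 replicate 3 no count changed. For most of these fits, and those below, the share of all genes called is not given here. The changed counts are therefore no result about these genes alone. Causes of the changes were not tested, and the left-out fits also had fewer arrays.

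With 1 array left out in turn the count was 0 to 0 at P0, P3, P7 and P15 between genotypes, 23 to 28 at P10 and 0 to 27 in the mean over days. It was 27 without KO P10 replicate 1. In KO it was 0 to 1 at P3, 0 to 1 at P7, 27 to 29 at P10 and 3 to 5 at P15. In WT it was 0 to 1, 0 to 1, 0 to 2 and 0 to 3 in the same order, with 0 at P15 without WT P15 replicate 1. For the test between days it was 5 to 28, with 5 without KO P10 replicate 2, 6 without replicate 3 and 17 without WT P10 replicate 2. Without KO P10 replicate 2 or 3, Ms4a1 (adjusted p = 0.0687 and 0.0540) and Cr2 (0.0618 and 0.0525) lost their P10 calls. The P10 difference ran between 2.79 and 5.90 for Ms4a1, between 2.57 and 5.52 for Cr2 and between 0.91 and 2.19 for Chst4, highest without KO P10 replicate 1. Over the 29 genes the median P10 difference was 3.65 without KO P10 replicate 1, 1.99 without replicate 2 and 1.97 without replicate 3.

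The same replicate number appears in several groups, but of 18 pairs of same-numbered arrays 9 had deviations correlated above 0.1 (range -0.52 to 0.38), so the numbers were not taken as pairs. A fit with a replicate block gave 28 calls at P10, 25 in the test between days, and the same counts as without it elsewhere.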

Other observations

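In the mean over the 5 days 10 of 11 cytotoxic lymphocyte genes were called higher in KO glands by limma, against 1.3% of all genes called higher, while 0 of the 29 B, T and node genes were. The 0 is not stable, as it became 27 without KO P10 replicate 1 and 27 with array weights. By single day 1 of the 11 cytotoxic genes was called at P0 (1.7% of all genes), 0 on day 3 (0.119%) and 0 on day 7 (0.00593%). On day 10 it was 10 (17.2%) and on day 15 it was 1 (11.1%). Their median difference on day 10 was 0.97, and 0.55 without the 3 arrays, which left 1 KO P10 array. In the mean over days the granzyme gene Gzmb differed by 0.81 ± 0.12, Ccl5 by 0.79 ± 0.16 and Nkg7 by 0.70 ± 0.13 (limma adjusted p = 0.000701, 0.00888 and 0.00513). Without KO P10 replicates 2 and 3 and WT P7 replicate 1, 7 of 11 were called, against 0.255% of all genes, with Gzmb at 0.85 ± 0.13, the granzyme gene Gzma at 0.70 ± 0.10 and Klrd1, a receptor chain of natural killer cells, at 0.54 ± 0.11 (limma adjusted p = 0.00275, 0.00193 and 0.0221). Ccl5 (0.62 ± 0.14, adjusted p = 0.0503), Prf1 (0.20 ± 0.06, adjusted p = 0.127) and Cst7 (0.21 ± 0.09, adjusted p = 0.374) lost their calls there. In that fit the median difference was 0.52 over the 11 cytotoxic genes and 0.03 over the 29 B, T and node genes. The list was chosen with earlier results known, and the difference between the 2 sets was not tested.

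Glycam1, which venules of lymph nodes and secretory mammary epithelium both express, read 9.58 in WT P0 replicate 3, with an excess of 2.98, and 12.71 and 12.64 in KO P10 replicates 2 and 3, with an excess of 0.09 and 0.02. Among the other 33 arrays it ran between 4.68 and 13.00.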
